A study of Homo sapiens with 8 samples.

Results

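The 2 forkhead factors FOXO1 and FOXO3 and 8 genes known for growth arrest, stress or insulin signalling (TXNIP, TSC22D3, PDCD4, CCNG2, BTG1, SESN3, KLF9 and IRS2) were followed across MCF-10F cells, their transformed derivative trMCF clone 11, and that clone after treatment with all-trans retinoic acid (ATRA). The genes were taken by symbol: a probe set, the group of oligonucleotides that gives 1 value on the array, was kept where its only annotated gene was one of the 10. All 10 genes of the 19775 with a probe set of their own were found, with 36 probe sets of the 41091 that name a single gene, and 7 further probe sets name a member together with another gene. Each gene was read from its brightest probe set (the highest mean log2 signal over all arrays), and the others served as a check.

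MCF-10F is an immortalized, normal-like human breast epithelial line that lacks estrogen receptor, progesterone receptor and HER2. The trMCF cells came from MCF-10F treated with estradiol, and trMCF clone 11 was grown from 1 colony picked by ring cloning, so that what sets it apart from MCF-10F may belong to that colony. The treated groups were this clone kept for 26 days in ATRA at 1 μM or at 10 μM with daily changes of medium, and all groups were cultured with horse serum, epidermal growth factor, cholera toxin, insulin and hydrocortisone. Total RNA was hybridized to Affymetrix U133 Plus 2.0 arrays, 2 per group and 8 in all. One label of trMCF clone 11 replicate 1 calls it normal, which its title contradicts, and the title was followed. Nothing in the sources tells if replicate arrays hold separate cultures, so that p-values measure the spread between arrays, which may be technical. Nor do they tell if the untreated clone arrays hold cells given the vehicle.

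FOXO factors are transcription factors held in check by growth factors. Insulin and epidermal growth factor act through PI3K and AKT, which phosphorylates the FOXO proteins and sends them out of the nucleus; when that signal is low they enter it and switch on genes that slow the cell cycle, limit translation and glucose uptake, and raise the insulin receptor and its adaptors. The arrays measure mRNA and not the place or phosphorylation of a protein. Hydrocortisone is a glucocorticoid, and TSC22D3 and KLF9 are also known to be induced by glucocorticoids.

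Array medians were 47.3 to 48.8 signal units, and 21.5 to 23.7% of signals per array were under 16, taken here as near background. The 2 trMCF clone 11 arrays lay farthest apart, with 7.71% of probe sets over 2-fold apart; the share was 3.48% for MCF-10F and 0.126 and 0.211% for the 1 and 10 μM arrays. Of 8 markers of breast epithelium, the 6 with a probe set of their own were all above 16 on some array, and of these KRT14, a basal keratin, fell by 6.66 on the log2 scale from the clone to 10 μM (limma adjusted p = 0.00836). The summed signal of the 6 was 32593 to 49138 in MCF-10F and 34251 to 35056 in trMCF clone 11. It was lower on every ATRA array, with 27106 to 28698 at 1 μM and 24580 to 25068 at 10 μM. The summed signal of 8 fibroblast markers was 1088 to 1834 in MCF-10F, 534 to 737 in trMCF clone 11, 363 to 367 at 1 μM and 386 to 395 at 10 μM, and of these COL1A2 and DCN fell by 2.56 and 1.22 on the log2 scale from MCF-10F to the clone (limma adjusted p = 0.00486 and 0.0451). PTPRC, which defines white blood cells, was under 16 on all arrays, but the summed signals of the blood and endothelial lists differed between groups. Those of 5 blood markers were 187 to 544 in MCF-10F, 232 to 329 in the clone, 576 to 665 at 1 μM and 753 to 821 at 10 μM. Those of 5 endothelial markers were 200.04 to 1172, 251 to 366, 685 to 867 and 936 to 1290.03 in the same order. At both doses the blood and endothelial sums were above those of the clone on every array. The sums do not stand for each marker. The median log2 differences of the blood and endothelial lists from the clone were -0.05 and -0.11 at 1 μM (all genes -0.06). At 10 μM they were 0.05 and 0.14 (all genes -0.01). LYZ rose from the clone to 10 μM by 1.04 (limma adjusted p = 0.0204), while CD14 and PECAM1 were 1.91 and 1.85 higher at 1 μM without passing (limma adjusted p = 0.335 and 0.405). The part of these shifts in the results below was not tested.

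Between MCF-10F and trMCF clone 11, 4 of the 10 genes rose, namely TXNIP, TSC22D3, PDCD4 and FOXO3 (limma, Benjamini-Hochberg adjusted p under 0.05 over all probe sets; 1.88% of all genes rose by this rule and 2.64% fell), and none fell. Treatment of the clone with 1 μM ATRA lowered TXNIP, TSC22D3 and PDCD4, 3 of 10, where 0.925% of all genes fell and 0.971% rose, and 10 μM lowered 7 of 10, where 3.89% of all genes fell and 3.94% rose. The 7 were TXNIP, TSC22D3, PDCD4, CCNG2, KLF9, FOXO1 and FOXO3. The median log2 difference of the 10 genes was 0.96 from MCF-10F to the clone (all genes 0.06), -1.17 from the clone to 1 μM (all genes -0.06) and -1.18 to 10 μM (all genes -0.01). The clone's 2 arrays enter both kinds of comparison, so a rise in the clone and a fall after ATRA are not independent. With bulk RNA, fewer cells expressing a gene and less RNA per cell cannot be told apart.

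**Figure D1:**
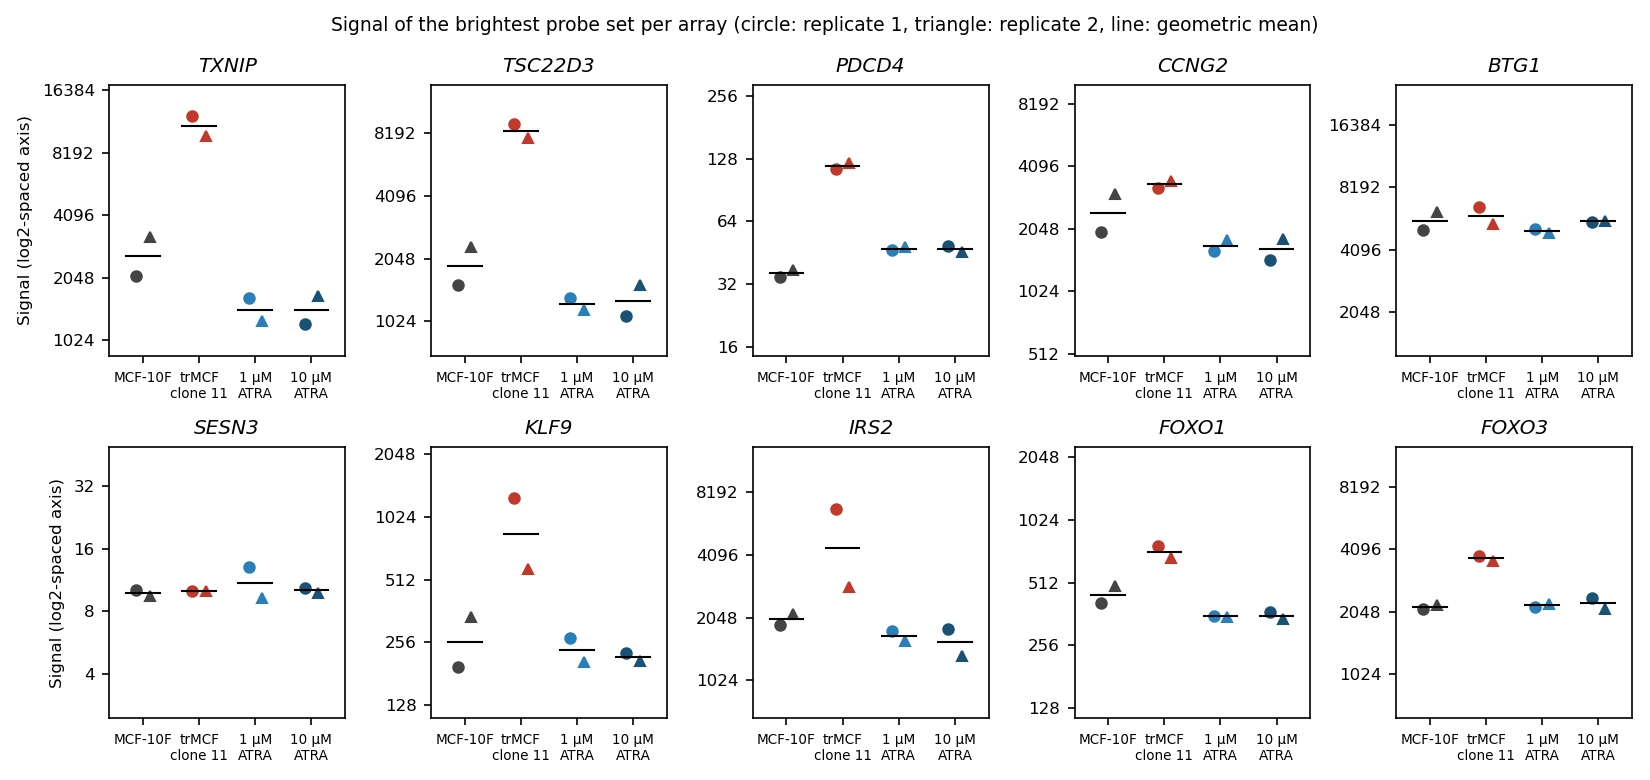
Signal of each of the 10 genes at its brightest probe set, on a log2-spaced axis that spans the same fold range in every panel, with circles and triangles for replicates 1 and 2 and lines for the geometric mean of a group. The clone's arrays stand above all others for TXNIP, TSC22D3, PDCD4, CCNG2, KLF9, IRS2, FOXO1 and FOXO3, while BTG1 overlaps and SESN3 stays under 16. The share of all genes with this pattern was not counted. Taken by pairs of groups, 27.5% of all genes were higher on both clone arrays than on both MCF-10F arrays. On both 1 μM arrays 30.3% were lower than on both clone arrays, and on both 10 μM arrays 24.1%.

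The factors themselves come first. The FOXO1 signal (chromosome 13) was 408 and 491 in MCF-10F (replicates 1 and 2), 767 and 672 in trMCF clone 11, 355 and 350.0 at 1 μM, and 368 and 342 at 10 μM. Both clone arrays were above all 6 others, and the ATRA arrays were all below those of MCF-10F. The difference between the clone and MCF-10F was 0.68 ± 0.16 on the log2 scale (SE, 2 arrays per group) and missed the threshold (adjusted p = 0.0876). FOXO1 was 1.03 ± 0.16 lower at 1 μM, just short of the threshold (adjusted p = 0.0511), and fell by 1.02 ± 0.15 at 10 μM (adjusted p = 0.0151), about 2.02-fold. A second FOXO1 probe set gave 0.59, -0.84 and -0.71 in these 3 comparisons, none of which passed. The dimmer 228484_s_at gave 0.27, -0.23 and -0.10, and none of these passed either (limma adjusted p = 0.477, 0.546 and 0.825).

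The FOXO3 signal (chromosome 6) was 2104 and 2219 in MCF-10F, 3817 and 3595 in the clone, 2163 and 2233 at 1 μM, and 2388 and 2123 at 10 μM. The clone's arrays were above all others, and the other 6 arrays overlapped. FOXO3 rose in the clone by 0.78 ± 0.14 on the log2 scale, or 1.71-fold (adjusted p = 0.0461). It was 0.75 ± 0.14 lower at 1 μM than in the clone (adjusted p = 0.0633) and fell by 0.72 ± 0.13 at 10 μM (adjusted p = 0.0274). Probe sets 204131_s_at and 224889_at rose in the clone as well, by 0.96 and 1.05, and fell by 0.79 and 0.93 at 10 μM. The dimmer 231548_at differed by 0.35 in the clone, where its arrays overlapped with MCF-10F, and by -0.83 at 10 μM. Neither passed (limma adjusted p = 0.675 and 0.229). Of the other FOXO genes, FOXO4 and FOXO6 differed by 0.20 and 0.17 between the clone and MCF-10F and passed in none of the comparisons.

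IRS2 (chromosome 13) encodes an adaptor that passes the signal of the insulin and IGF receptors to PI3K, and it is itself a known FOXO target. Its signal was 1884 and 2139 in MCF-10F, 6789 and 2883 in the clone, 1769.7 and 1576 at 1 μM, and 1806 and 1341 at 10 μM. The clone's 2 arrays were above the rest but 2.36-fold apart from each other. The differences of 1.14 ± 0.39 in the clone, -1.41 ± 0.39 at 1 μM and -1.51 ± 0.37 at 10 μM did not pass (adjusted p = 0.183, 0.138 and 0.0616). Its paralog IRS1, which has the same role, fell by 3.49 on the log2 scale in the clone (adjusted p = 0.00748), and it was 4.88 lower at 1 μM ATRA than in MCF-10F (adjusted p = 0.00638).

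TXNIP (chromosome 1) encodes an arrestin-like protein that binds thioredoxin and limits glucose uptake. The 250 bases before its annotated start (RefSeq, GRCh38.p14, chr1:145996580-145996829, minus strand) are shown because they hold, in capitals, a match to the glucocorticoid response element (GNACA, any 3 bases, TGTNC) and the forkhead letters GTAAACA, which begin 175 and 124 bases before the start.
TXNIP: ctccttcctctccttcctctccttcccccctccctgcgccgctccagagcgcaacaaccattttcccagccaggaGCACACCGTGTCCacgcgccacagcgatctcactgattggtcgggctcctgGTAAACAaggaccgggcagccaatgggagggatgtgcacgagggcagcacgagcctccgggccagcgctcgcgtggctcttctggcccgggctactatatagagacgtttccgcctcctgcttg
Promoters of all 10 genes were in the table of 27305 promoters and were searched on both strands over this window. GTAAACA or its complement TGTTTAC was found in 2.98% of all promoters and in those of TXNIP and BTG1, and the glucocorticoid element in 0.33% of all and in TXNIP alone among the 10. The exact E-box letters CACGTG occurred in 6.49% and in CCNG2 alone among the 10. At least 2 such matches in the window occurred in 0.56% and in none of the 10. E-boxes are read by the glucose-sensing factors MLXIP and MLXIPL with MLX. Copies with other letters, sites outside the window and other starts of a gene were not searched. The search therefore cannot tell whether a gene lacks a site for FOXO factors, the glucocorticoid receptor or the glucose-sensing factors. No 2 of the matches found overlap. A match of letters is a description and not a shown binding site.

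The TXNIP signal was 2093 and 3205 in MCF-10F, 12213 and 9842 in the clone, 1626 and 1260.45 at 1 μM, and 1225 and 1674 at 10 μM. The clone stood above every other array and all 4 ATRA arrays stood below both MCF-10F arrays. TXNIP rose in the clone by 2.08 ± 0.26 on the log2 scale, or 4.23-fold (adjusted p = 0.0239). It fell by 2.94 ± 0.26 at 1 μM and 2.94 ± 0.27 at 10 μM, 7.66-fold at either dose (adjusted p = 0.0181 and 0.00377). Its other 2 probe sets changed in the same directions, with differences of 2.55 and 3.03 in the clone and -3.16 and -3.83 at 1 μM.

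TSC22D3 (chromosome X) encodes the leucine zipper protein GILZ, which dampens inflammatory and growth signals. Its signal was 1530.09 and 2330.4 in MCF-10F, 9061 and 7798 in the clone, 1328 and 1158 at 1 μM, and 1083 and 1529 at 10 μM. As for TXNIP, the clone's arrays were the highest and all ATRA arrays were below MCF-10F, the highest of them only just. TSC22D3 rose in the clone by 2.15 ± 0.24, or 4.45-fold (adjusted p = 0.0182), and fell by 2.76 ± 0.24 at 1 μM and 2.71 ± 0.25 at 10 μM (adjusted p = 0.018 and 0.00417). The dimmer probe set 207001_x_at changed alike, by 1.90 in the clone and -1.98 at 10 μM, and passed at 1 μM too (adjusted p = 0.0423), whereas 235364_at lay at 15.7 to 20.7 on all arrays and passed in none.

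KLF9 (chromosome 9) encodes a Krüppel-like transcription factor that restrains proliferation. Its signal was 195 and 339 in MCF-10F, 1259 and 576 in the clone, 268 and 206 at 1 μM, and 227 and 208 at 10 μM. Both clone arrays were the highest, although 2.19-fold apart, and the remaining arrays overlapped. The differences of 1.73 ± 0.44 in the clone and -1.86 ± 0.44 at 1 μM did not pass (adjusted p = 0.097 and 0.1), while at 10 μM KLF9 fell by 1.97 ± 0.40 (adjusted p = 0.0353). Probe set 203543_s_at gave 1.83, -2.08 and -2.30, of which the last passed (adjusted p = 0.022), and the 3 dimmer KLF9 probe sets differed by at most 0.35 in size and passed in none of these.

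CCNG2 (chromosome 4) encodes an atypical cyclin of resting cells. Its signal was 1979 and 3003 in MCF-10F, 3226 and 3476 in the clone, 1599 and 1810.2 at 1 μM, and 1457 and 1826 at 10 μM. The clone was above MCF-10F by less than the 1.52-fold gap between the 2 MCF-10F arrays, and all ATRA arrays were the lowest. The differences were 0.46 ± 0.23 in the clone (adjusted p = 0.345) and -0.98 ± 0.23 at 1 μM (adjusted p = 0.0994), and CCNG2 fell by 1.04 ± 0.22 at 10 μM (adjusted p = 0.0422). At 10 μM, 2 of its 4 other probe sets also fell, by 1.03 and 1.16.

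PDCD4 (chromosome 10) encodes a protein that blocks the translation helicase eIF4A. The probe set that names PDCD4 alone was dim, with 34.5 and 37.5 in MCF-10F, 115 and 122 in the clone, 46.5 and 48.1 at 1 μM, and 48.9 and 45.6 at 10 μM. Its groups were tight: the clone was highest, and all 4 ATRA arrays lay above both MCF-10F arrays. PDCD4 rose in the clone by 1.72 ± 0.14, or 3.29-fold (adjusted p = 0.00991), and fell by 1.32 ± 0.14 at 1 μM and 1.32 ± 0.13 at 10 μM (adjusted p = 0.0259 and 0.00483). Brighter signal came from 4 probe sets annotated to PDCD4 together with MIR4680, a microRNA gene that lies inside PDCD4 in the annotation. On the brightest of them the signals were 1073 and 2358 in MCF-10F, 1800.27 and 4155 in the clone, 1579 and 1582 at 1 μM, and 1399 and 1717 at 10 μM. On all 4, replicate 2 was 2.04 to 2.5-fold above replicate 1 in both MCF-10F and the clone, so that these groups overlapped. Their differences between the clone and MCF-10F were 0.78 to 1.06 with adjusted p of 0.278 to 0.464, so that the dim probe set was the only one to pass. Between arrays of the same number, which are not known to be paired, the clone was 1.68 to 2.03-fold above MCF-10F in replicate 1 and 1.76 to 2.15-fold in replicate 2. After ATRA both arrays of either dose lay below both clone arrays on all 4, with differences of -0.78 to -1.04 at 1 μM (adjusted p = 0.302 to 0.504) and -0.82 to -1.11 at 10 μM (adjusted p = 0.229 to 0.409), none of which passed.

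BTG1 (chromosome 12) encodes an antiproliferative protein that recruits the CCR4-NOT deadenylase. Its 250 bases before the start (RefSeq, GRCh38.p14, chr12:92145847-92146096, minus strand) are shown as the other promoter with the forkhead letters, here as TGTTTAC in capitals and beginning 209 bases before the start.
BTG1: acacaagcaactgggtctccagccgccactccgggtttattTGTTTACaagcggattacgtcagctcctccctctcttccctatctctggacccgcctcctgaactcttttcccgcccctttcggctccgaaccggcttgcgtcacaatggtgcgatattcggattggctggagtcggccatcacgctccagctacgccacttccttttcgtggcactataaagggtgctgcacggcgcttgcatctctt
The brightest BTG1 probe set read 5114 and 6242 in MCF-10F, 6544 and 5458 in the clone, 5167 and 4914 at 1 μM, and 5575 and 5648 at 10 μM. The clone and MCF-10F overlapped, and BTG1 had the smallest differences of the 9 genes above background in the clone and after ATRA, with 0.08 ± 0.18 in the clone (95% interval -0.35 to 0.52), -0.25 ± 0.18 at 1 μM and -0.09 ± 0.16 at 10 μM (adjusted p = 0.853, 0.52 and 0.841). A dim probe set of the same gene, 1559975_at, read 24.6 and 28.8 in MCF-10F, 12.97 and 9.8 in the clone, 50.2 and 36.6 at 1 μM, and 56.3 and 29.9 at 10 μM. It was lowest in the clone, under 16, and rose by 1.93 at 1 μM and 1.86 at 10 μM (adjusted p = 0.0311 and 0.0222). On the third probe set, 200920_s_at, the clone's arrays read 4486 and 1960.34 and stood on either side of MCF-10F.

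**Figure D2:**
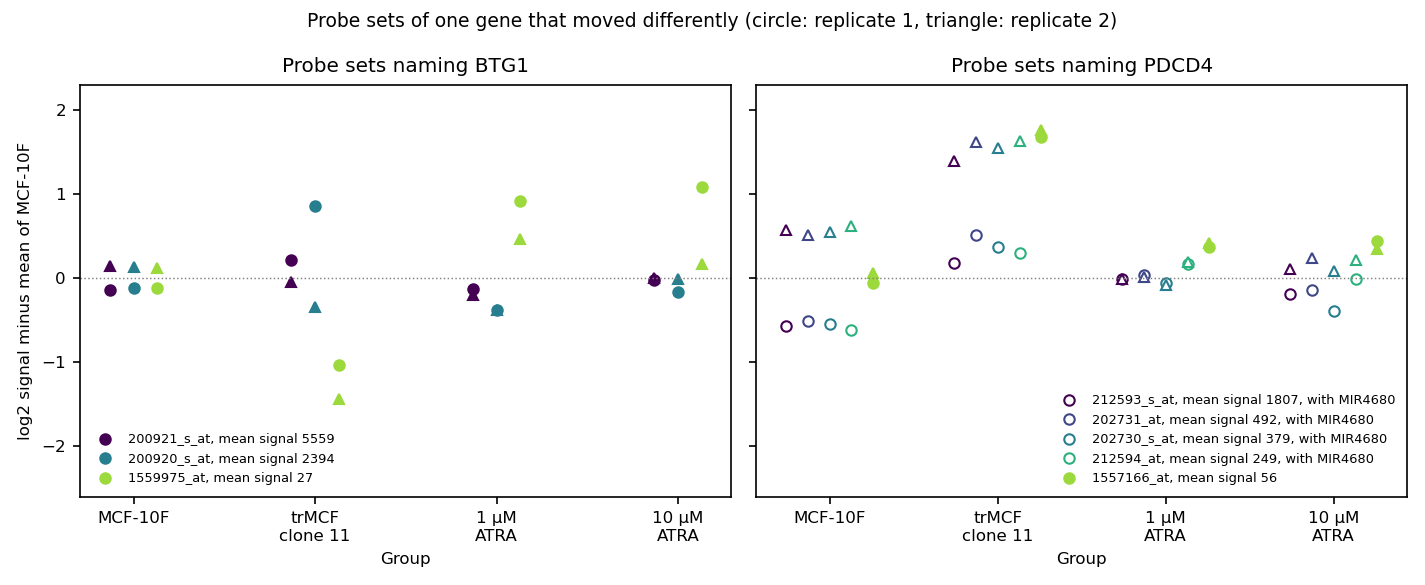
Log2 signal of each probe set of BTG1 (left) and PDCD4 (right) minus its own MCF-10F mean, by group, with circles and triangles for replicates 1 and 2 and open symbols for probe sets that also name MIR4680. The dim BTG1 probe set lies lowest in the clone while the brightest stays near 0, and the 4 shared PDCD4 probe sets split by replicate in MCF-10F and the clone while 1557166_at does not.

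SESN3 (chromosome 11) encodes a sestrin, a stress protein that holds back mTORC1. All 7 of its probe sets lay between 6.06 and 13.03 on every array, under the floor of 16, and no fold is given. The other sestrins, SESN1 and SESN2, differed by 0.30 and 0.07 between the clone and MCF-10F and by -0.83 and -0.46 after 1 μM ATRA, none past the threshold.

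**Figure D3:**
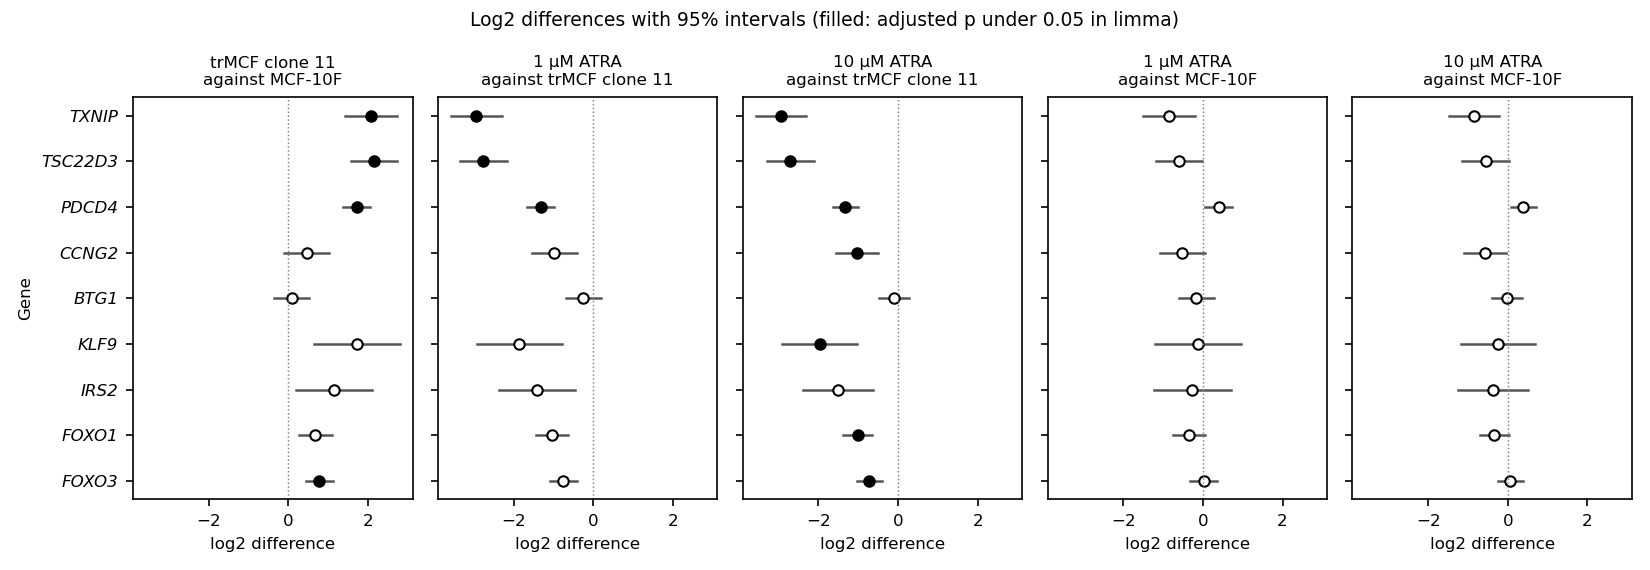
Log2 difference (points) with its 95% interval (bars) for the 9 genes above background in 5 comparisons, filled where the limma adjusted p was under 0.05. TXNIP, TSC22D3 and PDCD4 are filled in the first 3 panels, and no gene is filled in the 2 panels that set ATRA against MCF-10F.

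Whether ATRA returned these genes to the level of MCF-10F is a question whose differences leave out the clone's arrays. The p-values and intervals do not leave them out, since each fit pools the spread over all its groups. At 1 μM none of the 10 differed from MCF-10F in limma (0.142% of all genes were higher and 0.47% lower), with 3 at an unadjusted p under 0.05, where 12.5% of all genes had one. TXNIP was 0.86 below MCF-10F (95% interval -1.5 to -0.21), TSC22D3 was 0.61 below (-1.19 to -0.02) and PDCD4 was 0.39 above (0.05 to 0.74). FOXO3 differed by 0.02 (-0.32 to 0.37) and KLF9 by -0.13 (-1.21 to 0.94). At 10 μM none differed from MCF-10F either (0.759% of all genes higher, 1.81% lower), again with 3 at an unadjusted p under 0.05 (16.5% of all genes), namely TXNIP, PDCD4 and CCNG2 with -0.86, 0.39 and -0.58. By separation of arrays, TXNIP, TSC22D3, CCNG2, IRS2 and FOXO1 were lower on both arrays of either dose than on both MCF-10F arrays, which held for 24.2% of all genes at 1 μM and 21% at 10 μM. PDCD4 was higher on both, as were 26.1 and 29.6% of all genes. A miss of the threshold does not show equal levels. At either dose the intervals of TXNIP, TSC22D3, CCNG2, KLF9 and IRS2 reach past a 2-fold difference on their lower side.

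The 2 doses were measured at the same time of treatment. Their differences were between -0.11 and 0.16 for the 9 genes above background, and none passed in limma at an adjusted or an unadjusted p under 0.05 (0% of all genes passed after adjustment; 1.69% had an unadjusted p under 0.05). Only for BTG1 did the arrays of the doses separate, with both higher at 10 μM, as for 21.3% of all genes. The interval of the difference was -0.63 to 0.63 for TXNIP, -0.54 to 0.65 for TSC22D3, -0.31 to 0.31 for PDCD4 and -1.05 to 0.82 for KLF9. These widths pool the spread of all 8 arrays and not of the dose arrays alone. For KLF9 the SD of log2 signal was 0.27 at 1 μM and 0.09 at 10 μM, but 0.80 in the clone and 0.56 in MCF-10F. More genes were called at 10 μM than at 1 μM in comparison with the clone, but the fits differ in their arrays (8 and 6), and with all 8 arrays in the fit 6 genes passed at 1 μM, while calls over all 54613 probe sets went from 846 to 3209.

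Leaving out an array leaves its group with 1, which is then assumed to vary like the other groups, and the calls moved over all probe sets and not for these genes alone. The 4 rises in the clone became 0 without MCF-10F replicate 1 or either 1 μM array, 2 without clone replicate 1, 3 without MCF-10F replicate 2 and 7 without clone replicate 2. Calls over all probe sets in the same fits went from 1943 to 294, 33, 1341, 1499 and 8375. The 3 falls at 1 μM became 0 without either 1 μM array, where 0 of the 54613 probe sets passed in limma (5125 and 4718 had an unadjusted p under 0.05), and 7 without clone replicate 2, where 7272 passed. The 7 falls at 10 μM became 0, 2, 3, 3 and 4 without 10 μM replicate 1, 10 μM replicate 2, 1 μM replicate 1, 1 μM replicate 2 and clone replicate 1, with 97, 119, 967, 967 and 3352 probe sets passing in all. The signs of TXNIP, TSC22D3, PDCD4, CCNG2, KLF9, IRS2, FOXO1 and FOXO3 in the comparisons with the clone were the same in every one of these fits. By the study's criteria of a fold of 2 and an unadjusted p under 0.05, 5 of the 10 genes were higher in the clone (3.24% of all genes), and 6 and 7 were lower at 1 and 10 μM (3.02 and 3.67%). By separation of arrays, 8 of the 10 genes were higher on both clone arrays than on both MCF-10F arrays (27.5% of all genes), and 9 and 8 were lower on both arrays at 1 μM and 10 μM than on both clone arrays (30.3 and 24.1%).

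Other genes of the pathway were read from lists that leave out the 10. Of 34 further known FOXO targets, 1 rose in the clone and none fell. It was RBL2, a pocket protein of resting cells, with 1.54 ± 0.26 (adjusted p = 0.0427), and the list's median was 0.39 (all genes 0.06). At 1 μM none of the 34 passed, with a median of -0.79 (all genes -0.06). At 10 μM 5 fell, with a median of -0.70 (all genes -0.01), and these 5, named after their values were seen, were TNFSF10, SELENOP, GABARAPL1, MXI1 and BNIP3. The textbook FOXO targets CDKN1A and CDKN1B, inhibitors of cyclin-dependent kinases, differed by -1.22 and 1.18 between the clone and MCF-10F, and neither passed (adjusted p = 0.143 and 0.0523).

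Of 34 further growth-arrest genes, 2 rose in the clone (RBL2 and the Krüppel-like factor KLF11, by 2.19 ± 0.28, adjusted p = 0.024) with a median of 0.23. KLF11 fell by 1.90 ± 0.28 at 1 μM (adjusted p = 0.0446), the only one of the 34 to pass there, and the median was -0.41. At 10 μM 5 fell, namely KLF11, MXI1, TOB1, TSC22D1 and CDKN2D, again named after their values were seen. Among paralogs of the 10, TOB1, CCNG1, TSC22D1, TSC22D2 and TSC22D4 differed by 0.84, 0.23, 0.24, 0.22 and 0.55 in the clone, none past the threshold, and BTG2 had no probe set of its own here.

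Of 17 genes from the insulin receptor to mTOR, PIK3CD, a catalytic subunit of PI3K, rose in the clone by 1.35 ± 0.16 (adjusted p = 0.0217) and fell at 1 μM by 1.71 ± 0.16 (adjusted p = 0.0201), IRS1 fell in the clone, and the rest did not pass in these comparisons. None of 18 modifiers of FOXO proteins, such as SIRT1, SKP2 and the YWHA genes, passed in the clone or at 1 μM, and SKP2 and STK4 rose at 10 μM. Of 12 genes of the thioredoxin and arrestin group none passed in the clone, and ARRDC4, the arrestin closest to TXNIP and regulated by the same glucose-sensing factors, was 1.16 higher there (adjusted p = 0.116). ARRDC4 fell by 2.71 ± 0.32 at 1 μM (adjusted p = 0.0297) as the only one of the 12. Of 13 genes made up of the glucocorticoid receptor NR3C1 and further genes known to respond to it, none passed in the clone, and MT1X, one of a family of near-identical metallothioneins whose probes may cross-read, fell by 1.19 ± 0.19 at 1 μM (adjusted p = 0.0495). The list's median was 0.12 in the clone, -0.75 at 1 μM and -0.46 at 10 μM (all genes 0.06, -0.06 and -0.01). At 10 μM 3 fell, namely SGK1, MT2A and MT1X, by 2.84, 1.57 and 2.01 (adjusted p = 0.0316, 0.0112 and 0.00857). NR3C1 itself differed by -0.01 in the clone and 0.04 at 1 μM, and FKBP5 by -0.24 and -0.11. Larger differences that did not pass were those of ZBTB16 (2.11 and -2.40), CEBPD (2.43 and -1.43) and ERRFI1 (1.29 and -1.84), named after their values were seen. None of 4 partners of PDCD4 passed in any of these.

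Genes of cycling cells were set beside them. Of 24, none passed in the clone (median -0.21), whereas CCND1 and CCNE1, the G1 cyclins, rose at 1 μM by 3.03 ± 0.46 and 1.66 ± 0.20 (adjusted p = 0.0471 and 0.0324; median 0.74), and 9 of the 24 rose at 10 μM (median 0.71). The mitotic genes MKI67 and TOP2A differed by 0.21 and -0.47 at 1 μM, neither past the threshold. They were named as textbook examples after their values were seen, and both lay below the median of 0.74, so they do not stand for the list.

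**Figure D4:**
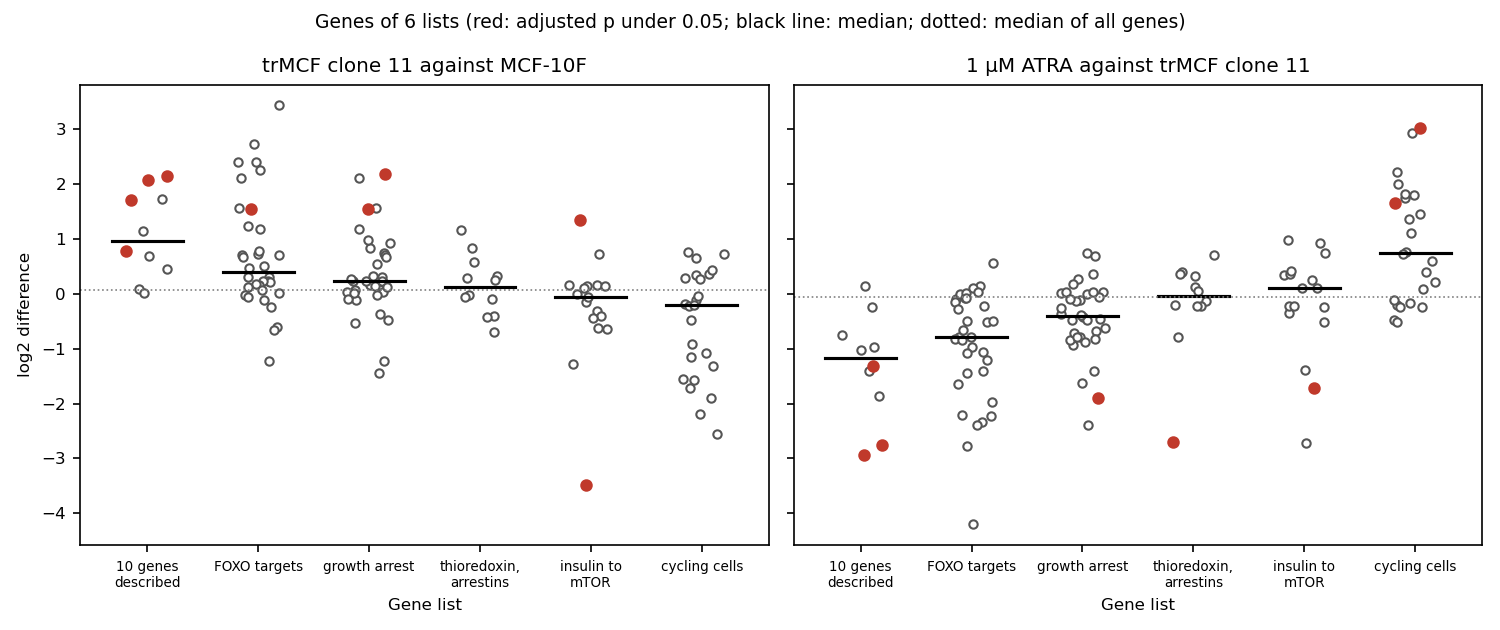
Log2 differences of the 10 genes and of 5 lists that leave them out, in trMCF clone 11 against MCF-10F (left) and 1 μM ATRA against trMCF clone 11 (right), with 1 point per gene, red where the limma adjusted p was under 0.05, a black line at the median and a dotted line at the median of all genes. The 10 genes have a median of 0.96 on the left and -1.17 on the right, and the cycling genes -0.21 and 0.74.

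The genes whose log2 signal was most like that of TXNIP over the 8 arrays, among 1419 genes with a mean signal of at least 50 and an SD of at least 50% of that of TXNIP, were TSC22D3, PHLDB3 and BCAS4, with Pearson's r of 0.996, 0.996 and 0.992. For BTG1, among 12044 genes, they were VAMP5, C22orf31 and CMYA5, with r of 0.968, 0.965 and 0.963. These r describe 8 arrays that fall into 4 groups and share each array's scaling.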

How the data were processed

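The deposited values are intensities, 1 signal per probe set and array on a linear scale, which the authors had background-corrected and normalized. Iterative Plier 16 and MAS 5.0 (scaled globally) both appear in the methods, with no word on which produced the table. Either can shift dim signals, and detection calls were not used here.

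Signals were log2-transformed and not rescaled. The 62 control probe sets among 54675 were dropped, which left 54613 for testing. By the platform annotation, with symbols updated through Entrez identifiers, 41091 name 1 gene, 1801 several and 11721 none. The tests were those of limma 3.58.1 (R 4.3.3; lmFit and eBayes on 1 mean per group), adjusted by Benjamini-Hochberg over all probe sets. MCF-10F, trMCF clone 11 and 1 μM were fitted together (6 arrays), and comparisons with 10 μM used all 8, with prior degrees of freedom of 2.91 and 3.18 beside 3 and 4 residual ones. The code was tested on simulated data. With 2 arrays per group, their number limits the precision.

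The genes and lists were chosen with earlier results of these data known, and some of the 10 stand in the study's own lists from these arrays, so that their counts are not independent evidence. The study lists TXNIP, TSC22D3 and PDCD4 as higher in the clone and lowered by 1 μM ATRA. It lists BTG1 in the opposite direction, and of the BTG1 probe sets only the dim 1559975_at moved that way here. FOXO1 stands among the study's cancer pathway genes as lowered by 1 μM ATRA. By the adjusted p used here it just missed the threshold (limma adjusted p = 0.0511). All 10 were named in every comparison. From each other list up to 3 genes with the smallest p among those passing in the clone or at 1 μM were named, besides the FOXO genes and paralogs, and a few further genes were named as textbook examples after their values were seen. Likeness was Pearson's r of log2 signal over all arrays. Promoters came from RefSeq (GRCh38.p14). Alternatives were all 8 or only the 4 arrays compared, quantile normalization, a filter on the dimmest probe sets, eBayes with trend and robust, the replicate number as a block, a floor of 16, other choices of probe set, the study's criteria, and each array left out in turn. Figures used matplotlib 3.10.9 and tables pandas 2.3.3.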

Additional observations from a re-analysis of the deposited data

How the results depend on the processing

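For the count of genes passing in trMCF clone 11 against MCF-10F (4), the fit of only the 4 arrays compared gave 0, a floor of 16 gave 1, probe sets without a shared-target suffix gave 2, and leaving out single arrays gave 0 to 7. At 1 μM against the clone (3), all 8 arrays gave 6, the floor 1 and the study's criteria 6. At 10 μM (7), the 4 arrays alone gave 3 and probe sets without the suffix 4. Those 4 were PDCD4, CCNG2 and FOXO3, which fell, and BTG1, whose dim 1559975_at rose. TXNIP, KLF9, IRS2 and FOXO1 have no probe set without the suffix, so they do not enter its counts. Comparisons of ATRA with MCF-10F and between doses gave 0 by adjusted p or the study's criteria under every alternative run. The sources do not pair replicates of the same number. Correlations of deviations between groups were -0.056 to 0.351, over 0.1 for 3 of 6 pairs of groups. Over probe sets with a mean signal over 50 they were -0.059 to 0.515. The highest value of either range was that of the 1 and 10 μM arrays, whose replicates of the same number thus deviated partly alike. The main fits did not take the numbers as pairing, also between doses. With the replicate number as a block, 0 of 54613 probe sets passed in limma between doses. With the replicate block, 3 genes passed in the clone (FOXO3 lost, adjusted p = 0.0782), 3 at 1 μM and 7 at 10 μM, while calls over all probe sets went from 1943 to 1002 in the clone and from 846 to 428 at 1 μM. The 4 probe sets shared by PDCD4 and MIR4680 did not pass in the clone with the block (adjusted p = 0.153 to 0.282). No called value of a single gene changed sign. The values that turned sign had not passed in the main fits. For BTG1 the mean over its probe sets gave -0.30 in the clone, 0.35 at 1 μM and 0.48 at 10 μM. Against MCF-10F that mean gave 0.048 and 0.18. The BTG1 probe set without the suffix gave -1.24, 1.93 and 1.86, and both of its rises passed (limma adjusted p = 0.0311 and 0.0222). It gave 0.69 and 0.63 against MCF-10F and -0.063 between doses. For TSC22D3 the probe set without the suffix gave 0.12 and 0.13 against MCF-10F at 1 and 10 μM. In the mean over probe sets FOXO3 gave -0.012 and -0.031 against MCF-10F, and between doses TXNIP, CCNG2 and FOXO3 gave -0.025, 0.020 and -0.019. With single arrays left out, BTG1 ranged from -0.063 to 0.22 in the clone, -0.22 to 0.040 at 10 μM and -0.15 to 0.13 at 10 μM against MCF-10F. Against MCF-10F, KLF9 ranged from -0.53 to 0.27 at 1 μM and -0.64 to 0.15 at 10 μM, and FOXO3 from -0.014 to 0.063 and -0.025 to 0.14. Between doses the ranges were -0.23 to 0.23 for TXNIP, -0.20 to 0.30 for TSC22D3, -0.052 to 0.049 for PDCD4, -0.22 to 0.10 for CCNG2, -0.30 to 0.078 for KLF9, -0.32 to 0.11 for IRS2, -0.042 to 0.063 for FOXO1 and -0.050 to 0.12 for FOXO3. The cause of these shifts was not tested, apart from the probe sets that disagree as reported. Signals near 16 limit SESN3, the dim BTG1 probe set and, less so, PDCD4.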

Other observations

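The 3 probe sets that name FOXO3 together with FOXO3B, a FOXO3-like gene on another chromosome, were left out of the values of FOXO3. On the brightest of them, 204132_s_at, the signals were 275 and 156 in MCF-10F, 739 and 289 in trMCF clone 11, 339 and 331 at 1 μM, and 306 and 334 at 10 μM. The clone's arrays were 2.55-fold apart and overlapped with the ATRA arrays, and none of the 3 probe sets passed in any comparison. On the second IRS2 probe set, 209184_s_at, the clone's arrays read 1722 and 544, 3.17-fold apart, against 506 and 453 in MCF-10F.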
